A study of Mus musculus with 9 samples.

Results

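Immediate early transcription factors were followed in mouse liver through 10 genes, chosen by name from the AP-1, EGR and KLF families and their early-response companions, out of 12393 genes with a probe set of their own on the arrays. The choice was made with earlier results of these data known. The genes were Fos, Jun, Junb, Jund, Egr1, Klf4, Klf6, Atf3, Maff and Ier2, and 14 probe sets were annotated to exactly 1 of them. Jun had 2 probe sets, Klf4 2, Klf6 3 and each other gene 1. In all, 11 of the 14 passed the filter on dim probe sets, and each of the 10 genes kept its brightest probe set, which stands for the gene below. Klf4 lay at the edge of that filter, which was set at the 30th percentile of mean log2 intensity, and passed it narrowly.

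Immediate early genes are switched on within minutes of a growth factor, cytokine or stress signal, without new protein synthesis, and most of their transcripts decay quickly. MAP kinases act on serum response factor and its Elk partners and on CREB family proteins, which are already bound or ready to bind at these genes. The Fos and Jun proteins pair through leucine zippers to form AP-1, Egr1 and the KLF proteins bind GC-rich sites through zinc fingers, and in the liver the set is best known from regeneration after partial loss of tissue, from the acute phase response and from injury.

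The livers came from male BALB/c nu/nu mice, which lack a thymus, aged 6 weeks when a human colon cancer named TK-4 was placed in the cecal wall. The organ sampled was therefore not the organ that carried the implant. Mice received the oral drug TSU68, an inhibitor of VEGF, PDGF and FGF receptor tyrosine kinases, at 400 mg/kg per day, or vehicle, for 1 week from day 7 after implantation. The 3 groups of 3 arrays were NT-Co (no tumour, vehicle; replicate numbers 8, 10 and 11), T-Co (tumour, vehicle; 9, 10 and 13) and T-TSU (tumour, TSU68; 2, 12 and 14). For the mice without a tumour the labels state no strain, sex or age of their own and describe no operation, so tumour and implantation cannot be told apart. Livers of mice without a tumour that received TSU68 are not analysed here. The labels number the samples without saying that each number is its own animal, and the p-values below therefore speak of the spread among these samples alone, which may be technical. Early genes are known to be sensitive to handling, feeding and the hour of day, and the labels are silent on the hour of collection and the feeding state.

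The deposited values are linear array intensities that the authors had scaled, with a trimmed mean of 500.3 on every array and medians from 107 to 119. The arrays of a group correlated with each other at a mean of 0.947 to 0.964 over probe sets. T-Co 13 stood apart from the other arrays on the second principal component (48.1, against 17.5 for the next highest array). The 9 hepatocyte markers with a probe set all passed the filter, and their summed intensity was 245037 to 266508 on the NT-Co arrays, 279469 to 298194 on the T-Co arrays and 245548 to 260943 on the T-TSU arrays, with Ahsg, Arg1 and Cps1 called higher in T-Co than in NT-Co. Hnf4a had a lower mean in T-Co (8063) than in NT-Co (9494), and the other hepatocyte markers a higher one. In bulk liver, fewer cells of a type and less RNA per cell cannot be told apart. The beta-actin 3' to 5' intensity ratio, a measure of RNA integrity, was 2.72 ± 0.44 on the NT-Co arrays, 1.98 ± 0.11 on the T-Co arrays and 2.02 ± 0.20 on the T-TSU arrays (mean ± SD, n = 3), while that of Gapdh was 0.765 ± 0.031, 0.765 ± 0.039 and 0.767 ± 0.075. The beta-actin ratio differs between the groups of both comparisons with NT-Co below, and its part in those differences was not tested.

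Promoter sequence was at hand for 8 of the 10 genes, from RefSeq models on GRCm38.p6, as windows from 250 bases before to 50 bases after a transcription start. Egr1 and Ier2 had no entry. Both strands of the 250 upstream bases were searched for the cAMP response element TGACGTCA and its core TGACG (which lies inside the full element), the AP-1 site TGAGTCA, the EGR site GCGGGGGCG, the TATA box TATAAA and the serum response factor's CArG box. The stretches that hold most of the matches are shown because these are the letters through which early factors are classically read, with the motif in capitals, 5' to 3' along the strand of the gene. Fos is from chr12:85473740-85473879 (plus strand, 150 to 11 bases before the start), Maff from chr15:79347450-79347519 (plus strand, 70 to 1 bases before the second of 3 listed starts), Junb from chr8:84978819-84978888 (minus strand, 140 to 71 bases before) and Klf4 from chr4:55532646-55532715 (minus strand, 240 to 171 bases before).
Fos: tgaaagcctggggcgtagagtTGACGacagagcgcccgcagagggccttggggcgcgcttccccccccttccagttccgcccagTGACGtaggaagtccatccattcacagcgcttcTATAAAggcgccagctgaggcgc
Maff: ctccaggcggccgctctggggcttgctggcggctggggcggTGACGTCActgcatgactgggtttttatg
Junb: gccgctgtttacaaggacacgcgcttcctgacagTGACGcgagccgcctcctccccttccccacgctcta
Klf4: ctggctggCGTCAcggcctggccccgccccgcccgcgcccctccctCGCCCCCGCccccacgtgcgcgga

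In Fos the capitals mark the core TGACG at 129 and at 66 bases before the start and the TATA box at 33 bases. In Maff they mark a full cAMP response element at 29 bases, and in Junb a core at 106 bases. In Klf4 they mark the complement of a core at 232 bases and of an EGR site at 194 bases, both lying on the opposite strand. Atf3 also held a core, on the opposite strand at 7 bases. The core was thus present in 5 of the 8 genes, beside 19.8% of all 27025 genes with a window, and in 6 of their 10 windows, beside 17.8% of all 32851 windows. The full element occurred in 1.55% of windows, the EGR site in 2.57% and the TATA box in 12.4%. The AP-1 site (4.46% of windows) and the CArG box (1.47%) were not among the letters of the 250 upstream bases of the 8 genes, which says nothing of sites elsewhere. These matches are a description of sequence, and no binding was measured.

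All 10 genes had a higher mean in T-Co than in NT-Co, and 3 of them rose by the test, Junb, Maff and Ier2. Under 18 alternative analyses the call held in 17 for Junb, in 13 for Maff and in 4 for Ier2. The Maff probe set was dim in NT-Co and passed the filter through the other groups. Differences are given as log2(intensity + 7.92) ± SE from a limma fit to all 9 arrays, with p-values adjusted by Benjamini-Hochberg over 15838 probe sets and a threshold of 0.05. At that threshold 6.54% of probe sets were called, 4.16% higher in T-Co than in NT-Co and 2.38% lower, against 3 and 0 of the 10 genes. An unadjusted p under 0.05 was reached by 6 of the 10 genes and by 22.2% of probe sets. The T-Co arrays lay wholly above the NT-Co arrays for 6 genes (Jun, Junb, Jund, Egr1, Maff and Ier2) and for 14.4% of all probe sets, with 26.9% apart in either direction. The median difference of the 10 genes was 0.95, beside 0.0070 for all probe sets, and it was 0.64 without T-Co 13. The counts and medians of the 10 genes, here and in the comparisons below, are a description. These genes were chosen with earlier results of these data known.

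**Figure D1:**
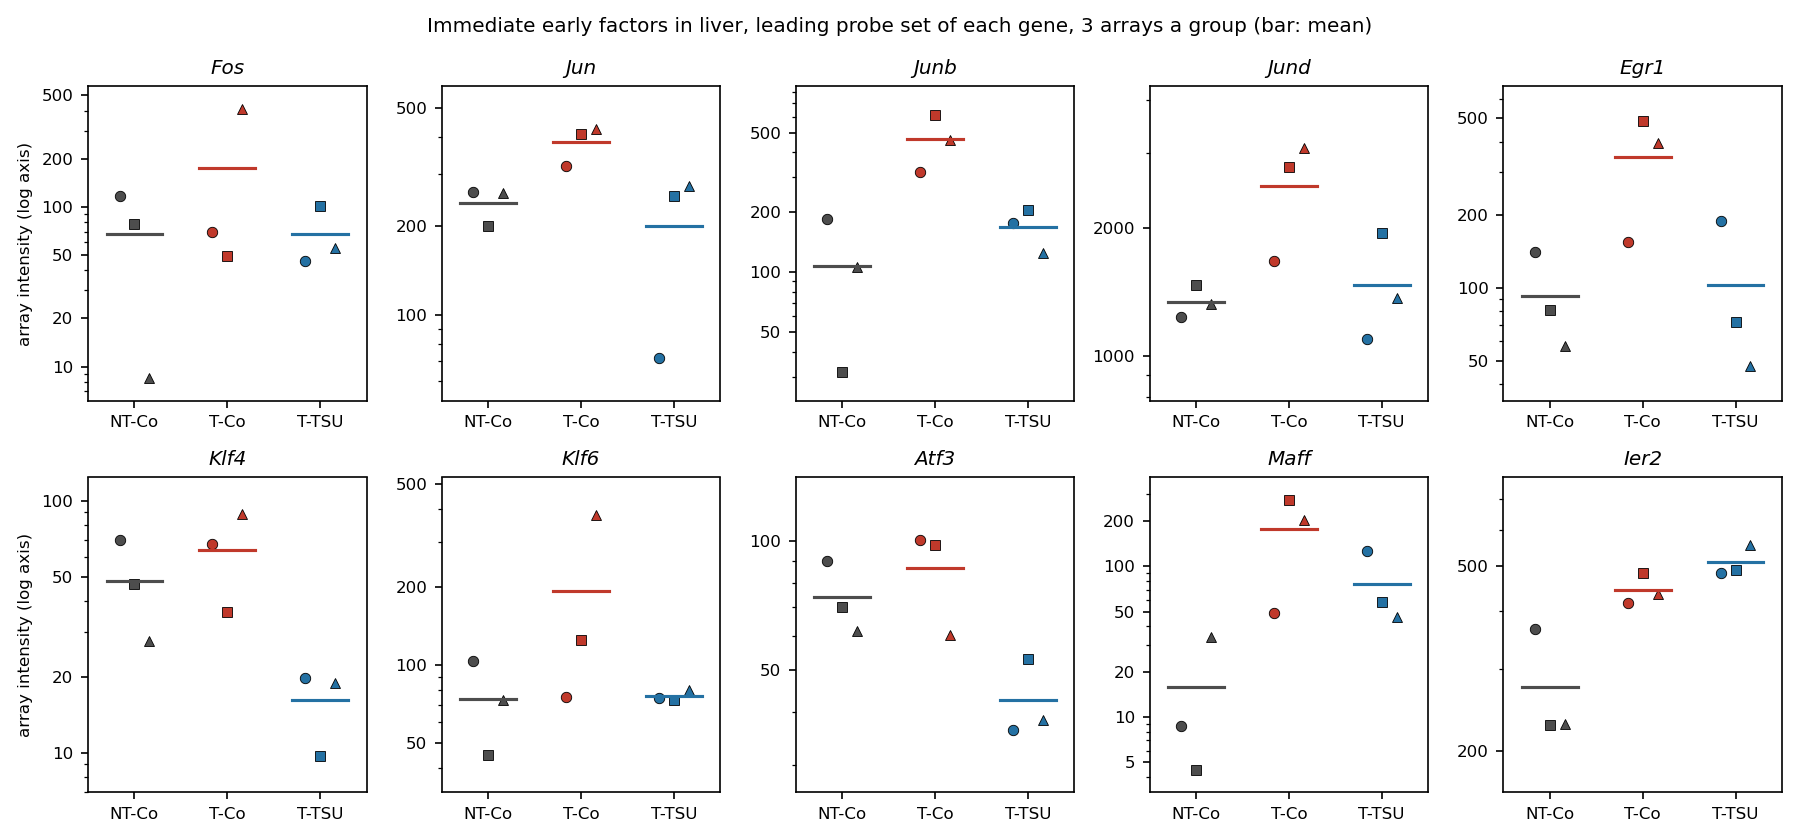
Array intensity (log axis) of the brightest probe set of each of the 10 genes in NT-Co, T-Co and T-TSU liver, with 1 point per array (circle, square and triangle in the order of replicate numbers) and a bar at the group mean. The T-Co points lie above all NT-Co points for Jun, Junb, Jund, Egr1, Maff and Ier2, and the highest Fos and Klf6 points are those of T-Co 13.

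The values below follow the order of the replicate numbers given above. Junb encodes a Jun protein that pairs with Fos and often restrains Jun. Its intensities were 184, 31.7 and 106 on the NT-Co arrays, 316, 611 and 461 on the T-Co arrays and 177, 205 and 125 on the T-TSU arrays. Every T-Co array was above every array of the other groups, whereas NT-Co and T-TSU overlapped. Junb rose in T-Co over NT-Co by 2.25 ± 0.46 (4.76-fold, adjusted p = 0.0137, limma). That call held without any 1 of the 9 arrays (differences of 1.62 to 2.76), and of 18 alternatives it was lost only when the variance was moderated without the intensity trend (adjusted p = 0.0595). Between T-TSU and T-Co the Junb difference was -1.39 ± 0.46 with groups that did not overlap, and it did not pass the threshold (adjusted p = 0.325). Between T-TSU and NT-Co it was 0.86 ± 0.46 (adjusted p = 0.390).

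Jund, the Jun protein that resting cells already hold in quantity, read 1236, 1464 and 1326 on the NT-Co arrays, 1668, 2787 and 3081 on the T-Co arrays and 1097, 1947 and 1369 on the T-TSU arrays. All T-Co arrays exceeded all NT-Co arrays, and 1 T-TSU array reached into the T-Co range. The difference of T-Co from NT-Co was 0.86 ± 0.24 (adjusted p = 0.0520), just outside the threshold. Jund was called in 4 of 18 alternative analyses, namely with a pseudocount of 32 and without T-Co 9, T-TSU 2 or T-TSU 12. From T-Co to T-TSU the difference was -0.76 ± 0.24 (adjusted p = 0.303), which left T-TSU at 0.09 ± 0.24 from NT-Co.

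Jun encodes the founding Jun protein and was read by 2 probe sets. The brighter gave 261, 200.4 and 259 on the NT-Co arrays, 320, 411 and 425 on the T-Co arrays and 71.8, 253 and 274 on the T-TSU arrays. The other gave 245, 162 and 171, then 326, 349 and 558, then 128, 240 and 218. By both, all T-Co arrays lay above all NT-Co and all T-TSU arrays, and T-TSU 2 was the lowest of the 9. The T-Co to NT-Co difference was 0.66 ± 0.39 (adjusted p = 0.348) by the brighter and 1.04 ± 0.28 (adjusted p = 0.0458) by the other, so the call rested on which probe set was read. The mean of both gave 0.85 (adjusted p = 0.140). T-TSU differed from T-Co by -1.11 ± 0.39 and -1.05 ± 0.28 (adjusted p = 0.336 and 0.210). Between T-TSU and NT-Co the differences were -0.45 ± 0.39 and -0.01 ± 0.28, and the first of these changed sign, to 0.14, without T-TSU 2.

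Fos, the partner that gives AP-1 with Jun its strongest DNA binding, had an unusually wide spread. Its intensities were 118, 77.6 and 8.53 on the NT-Co arrays, 69.4, 49.4 and 408 on the T-Co arrays and 46.0, 101 and 55.1 on the T-TSU arrays. The groups overlapped throughout, with the highest value on T-Co 13 and the lowest on NT-Co 11. The residual SD of Fos was 1.30 on the log2 scale, at the 99.7th percentile of tested probe sets. T-Co differed from NT-Co by 1.13 ± 0.80 (adjusted p = 0.457), a value of 0.25 without T-Co 13 and of 0.24 without NT-Co 11. T-TSU differed from T-Co by -0.77 ± 0.80 and from NT-Co by 0.36 ± 0.80 (adjusted p = 0.788 and 0.889). On the linear scale the order of those groups turned, with a T-TSU mean of 67.5 and an NT-Co mean of 68.0.

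Atf3 encodes a stress-induced ATF family protein that binds the cAMP response element and in pairs with itself represses it. Intensities were 90.1, 70.4 and 61.7 on the NT-Co arrays, 101, 98.2 and 60.4 on the T-Co arrays and 36.2, 53.1 and 38.2 on the T-TSU arrays. NT-Co and T-Co overlapped, and all T-TSU arrays lay below both. The T-Co to NT-Co difference of 0.19 ± 0.35 had a 95% interval from -0.57 to 0.94 (adjusted p = 0.809). T-TSU was -0.89 ± 0.35 from T-Co (adjusted p = 0.395) and -0.70 ± 0.35 from NT-Co (adjusted p = 0.339), neither past the threshold.

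Maff, a small Maf protein that binds DNA but has no activation domain, had the largest T-Co to NT-Co difference of the 10 genes. It read 8.73, 4.43 and 34.0 on the NT-Co arrays, 49.0, 277 and 204 on the T-Co arrays and 126, 57.9 and 45.8 on the T-TSU arrays. No NT-Co array reached any array of the other groups, while T-Co and T-TSU overlapped. All 3 NT-Co values lay below the intensity of about 36.2 at which the filter was set, so the probe set passed the filter through T-Co and T-TSU and a difference from NT-Co has no firm size. Maff rose in T-Co over NT-Co by 2.88 ± 0.65 (adjusted p = 0.0215), by 3.53 with a pseudocount of 1 and by 1.97 with one of 32. With 1 array left out the difference ranged from 2.42 to 3.58. The adjusted p was 0.0740 without NT-Co 8, 0.0651 without NT-Co 10, 0.0776 without T-Co 10, 0.0748 without T-Co 13 and 0.0606 without the intensity trend. T-TSU differed from NT-Co by 1.93 ± 0.65 (adjusted p = 0.139) and from T-Co by -0.95 ± 0.65 (adjusted p = 0.653).

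Egr1, the zinc finger factor at the head of the EGR family, read 140, 80.8 and 57.5 on the NT-Co arrays, 155, 486 and 395 on the T-Co arrays and 189, 72.1 and 47.7 on the T-TSU arrays. T-Co exceeded NT-Co on every array, but T-Co 9 stood close to NT-Co 8 and below T-TSU 2. The difference was 1.75 ± 0.50 (3.35-fold, adjusted p = 0.0592) and did not pass. It passed in 4 of 18 alternatives, with a pseudocount of 32, without T-Co 9, without T-TSU 2 and when only NT-Co and T-Co entered the fit. T-TSU differed from T-Co by -1.74 ± 0.50 (adjusted p = 0.250), with a 95% interval from -2.83 to -0.64. From NT-Co it differed by 0.01 ± 0.50, a value whose sign depended on the scaling and on single arrays.

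Klf6, a KLF factor known among other places from activated stellate cells, had 3 probe sets, of which 1 passed the filter. That one read 104, 45.0 and 73.3 on the NT-Co arrays, 75.0, 125 and 380 on the T-Co arrays and 74.3, 73.4 and 80.1 on the T-TSU arrays. NT-Co and T-Co overlapped, and the 3 T-TSU arrays lay within 1.09-fold of each other. T-Co differed from NT-Co by 1.05 ± 0.48 (adjusted p = 0.225), or 0.42 without T-Co 13. The dim probe sets were also highest on T-Co 13. The first gave 12.6, 28.2 and 8.27 on the NT-Co arrays, 23.4, 80.2 and 211 on the T-Co arrays and 11.9, 17.3 and 10.5 on the T-TSU arrays. The other gave 31.9, 4.80 and 2.97, then 37.0, 17.6 and 182, then 22.6, 36.6 and 36.2. By both, NT-Co and T-Co overlapped. Without the filter the T-Co to NT-Co differences of these dim probe sets were 1.88 ± 0.63 and 1.77 ± 0.71 (adjusted p = 0.134 and 0.219). T-TSU differed from T-Co by -0.95 ± 0.48 (adjusted p = 0.522), or -0.32 without T-Co 13, and from NT-Co by 0.10 ± 0.48.

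Klf4, a KLF factor known for growth arrest and for endothelial and epithelial roles, was dim. Its brighter probe set gave 69.8, 46.6 and 27.7 on the NT-Co arrays, 67.4, 36.0 and 88.3 on the T-Co arrays and 19.8, 9.73 and 18.8 on the T-TSU arrays. All T-TSU arrays lay below all others, and NT-Co and T-Co overlapped. T-TSU differed from T-Co by -1.53 ± 0.52 (adjusted p = 0.330) and from NT-Co by -1.18 ± 0.52 (adjusted p = 0.273), while T-Co differed from NT-Co by 0.36 ± 0.52. All 3 T-TSU values lay below the filter's intensity of about 36.2, so the probe set passed through NT-Co and T-Co, and the sizes of the T-TSU differences are not firm. With a pseudocount of 1 or 32 they were -1.89 or -0.96 from T-Co and -1.48 or -0.71 from NT-Co. The other probe set did not show that order. It gave 73.2, 38.0 and 33.6, then 28.7, 10.7 and 35.3, then 4.84, 70.1 and 41.1, and without the filter its T-TSU to T-Co difference was 0.24 ± 0.65 (adjusted p = 0.951).

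**Figure D2:**
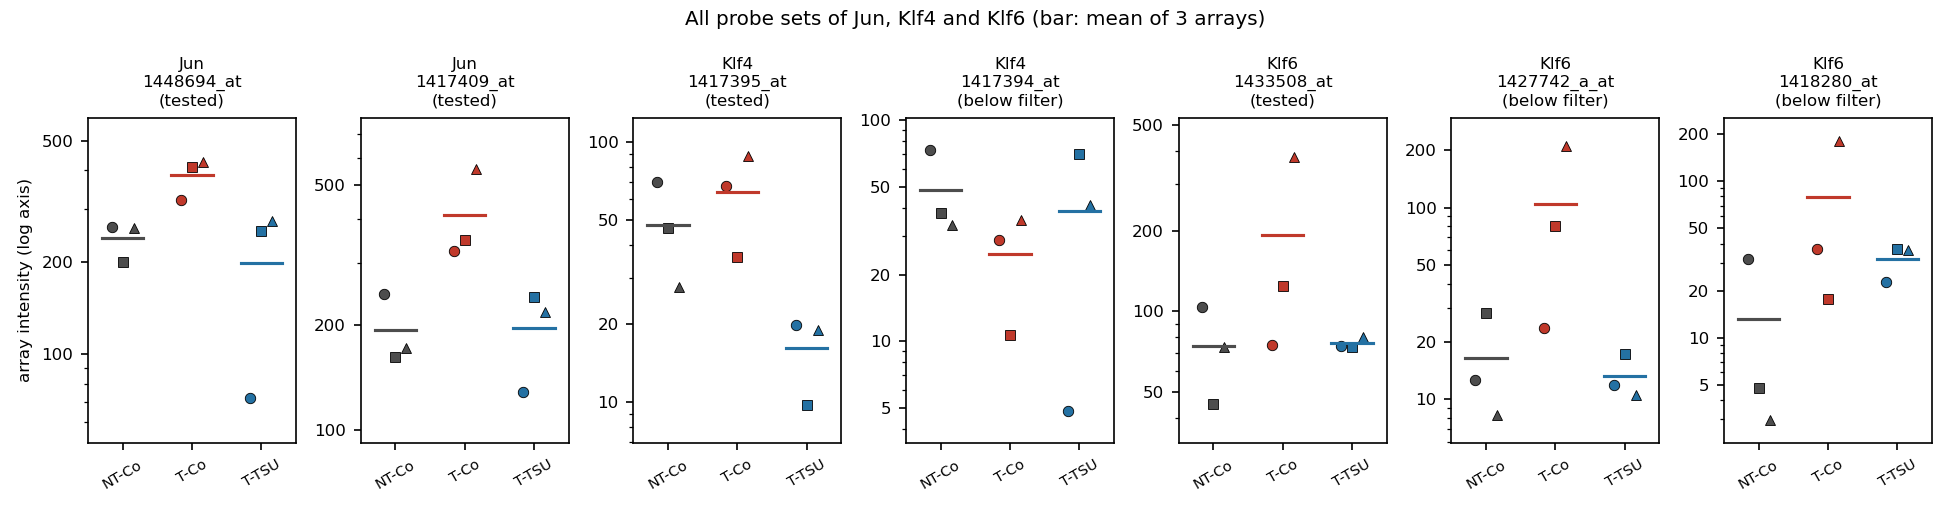
Array intensity (log axis) of every probe set of Jun, Klf4 and Klf6 by group, with 1 point per array and a bar at the mean of 3 arrays. The Jun probe sets and the Klf6 probe sets each have their highest mean in T-Co, whereas the Klf4 probe set below the filter has its lowest mean there (24.9, against 48.3 in NT-Co and 38.7 in T-TSU).

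Ier2, a nuclear protein of the early response without a classical DNA-binding family, had its highest mean in T-TSU, unlike the other 9 genes. The intensities were 367, 228 and 229 on the NT-Co arrays, 417, 484 and 435 on the T-Co arrays and 484, 491 and 556 on the T-TSU arrays. Both tumour groups lay wholly above NT-Co and met each other at 484. Ier2 rose by 0.72 ± 0.20 in T-Co (adjusted p = 0.0499) and by 0.91 ± 0.20 in T-TSU (adjusted p = 0.0231) over NT-Co. The T-Co call sat at the threshold and held in 4 of 18 alternatives, with adjusted p-values up to 0.185, without NT-Co 11. The T-TSU call held in 12 of 18 and was lost without NT-Co 10 or 11, without any 1 of the T-TSU arrays or without the intensity trend (adjusted p up to 0.109). Between T-TSU and T-Co the difference was 0.19 ± 0.20, with a 95% interval from -0.24 to 0.62 (adjusted p = 0.785).

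Between TSU68 and vehicle in tumour-bearing mice, the mean log2 intensity was lower in T-TSU for 9 of the 10 genes and higher for Ier2, and limma called none of them. At an unadjusted p under 0.05 there were 6 of the 10 (Jun, Junb, Jund, Egr1, Klf4 and Atf3), where 10.5% of all probe sets reached that level. The adjusted threshold was reached by 0.0505% of probe sets, or 8 in all (0.0379% higher and 0.0126% lower), so this comparison made few calls of any kind. The T-TSU arrays lay wholly below the T-Co arrays for Jun, Junb, Klf4 (dim in T-TSU, as said) and Atf3, as did 7.39% of all probe sets, while none of the 10 genes and 6.75% of probe sets lay wholly above. The median of the 10 genes was -0.95, beside -0.0090 for all probe sets. This comparison shares the T-Co arrays with the one before it, so a high T-Co array enters both with opposite sign, and the values of the 10 genes in the comparisons are given side by side only.

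Between T-TSU and NT-Co, a comparison that leaves out T-Co but shares its arrays with both of the others, 1 of the 10 genes was called, Ier2, where 3.85% of probe sets were called, 2.49% higher and 1.36% lower. Maff and Ier2 were higher on every T-TSU array and Klf4 and Atf3 lower on every one. Non-overlap of this kind was seen in 12.7% of probe sets upward and 11.6% downward. Maff was dim in NT-Co and Klf4 in T-TSU, and each passed the filter through its brighter groups. The other Klf4 probe set overlapped between T-TSU and NT-Co. Of the 10 differences 7 were above 0 and 3 below, with a median of 0.10. On the linear scale, by the brightest probe set, the order of group means was NT-Co, T-TSU, T-Co for 5 genes (Junb, Jund, Egr1, Klf6 and Maff). It was T-TSU, NT-Co, T-Co for 4 (Fos, Jun, Klf4 and Atf3) and NT-Co, T-Co, T-TSU for Ier2. Fos is among those 4, although its log2 difference of T-TSU from NT-Co was above 0 (0.36). The other Jun probe set gave NT-Co, T-TSU, T-Co, the other Klf4 probe set T-Co, T-TSU, NT-Co, and a dim Klf6 probe set T-TSU, NT-Co, T-Co. Of the neighbours in the orders by the brightest probe set, NT-Co and T-Co were told apart by the test for Ier2 and no other neighbouring pair was. By the moderated F test over the 3 groups, Junb (adjusted p = 0.0321), Ier2 (0.0333) and Maff (0.0460) passed, where 5.7% of probe sets did.

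**Figure D3:**
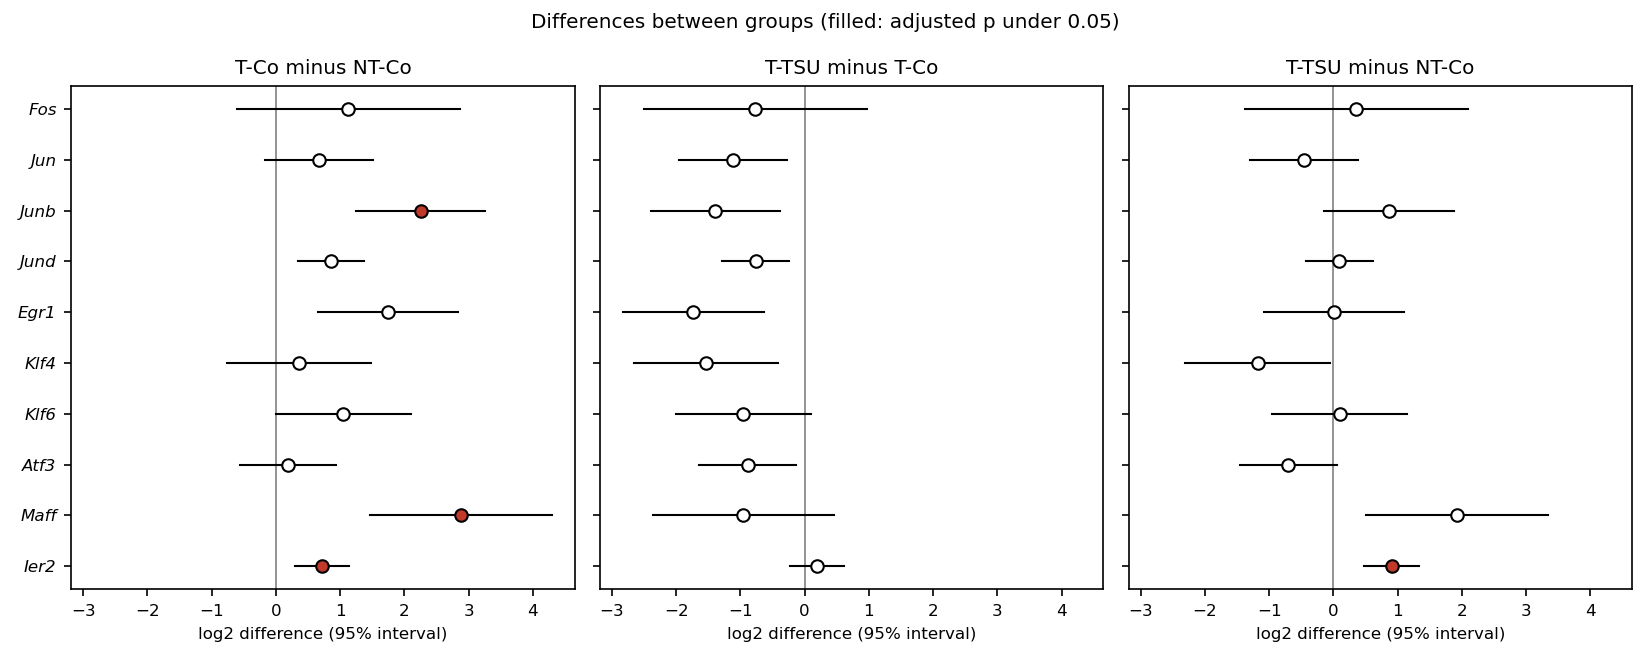
Log2 difference of the 10 genes in each comparison, as points with 95% intervals from the limma fit, filled where the adjusted p was under 0.05. Junb, Maff and Ier2 are filled for T-Co minus NT-Co and Ier2 for T-TSU minus NT-Co, and no point is filled for T-TSU minus T-Co.

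The single arrays differed within T-Co. Relative to the NT-Co mean of each gene, the median of the 10 genes was 0.48 on T-Co 9, 0.80 on T-Co 10 and 1.64 on T-Co 13. It was 0.48, -0.16 and -0.12 on the NT-Co arrays 8, 10 and 11, so T-Co 9 and NT-Co 8 had the same median. On the T-TSU arrays it was 0.01, 0.31 and 0.17. T-Co 13 held the highest of 9 values for 5 genes, T-Co 10 for 3, and T-Co 9 and T-TSU 14 for 1 each. T-Co 9, 10 and 13 had 7, 8 and 9 of the 10 genes above every NT-Co array, and the T-TSU arrays had 3, 4 and 3.

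**Figure D4:**
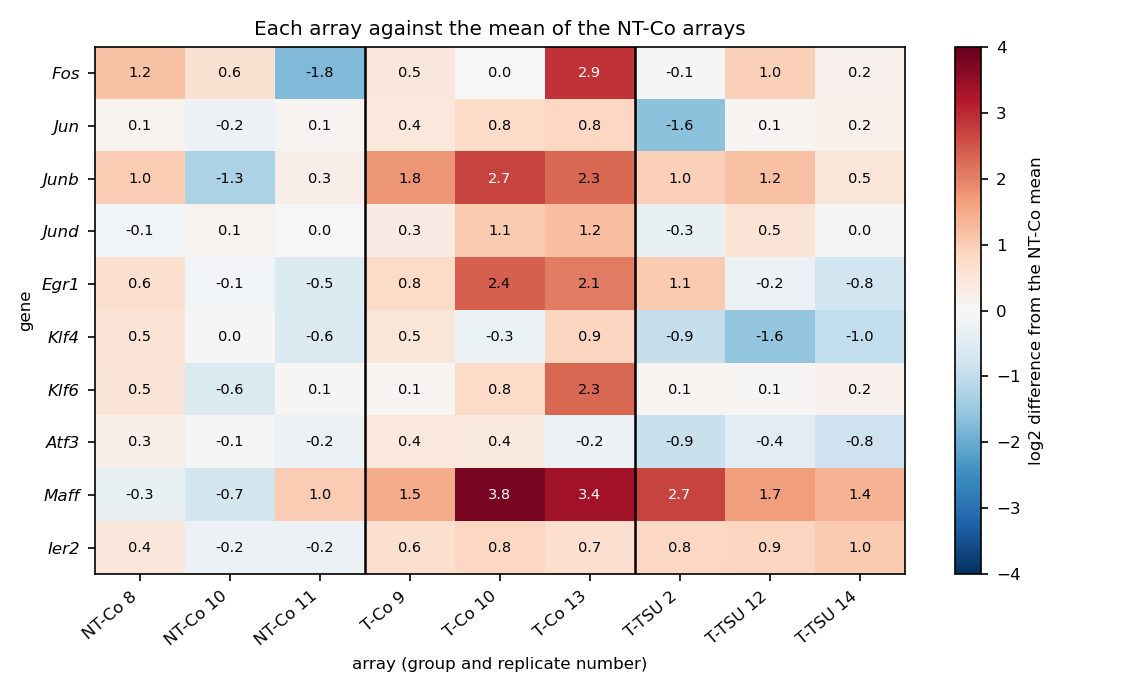
Log2 difference of each array from the NT-Co mean, for the 10 genes (vertical) on the 9 arrays (horizontal), with the value printed in each cell and red above the NT-Co mean. The strongest cells are Maff on T-Co 10 (3.80) and T-Co 13 (3.37) and Fos on T-Co 13 (2.89), and the Klf4 and Atf3 cells of T-TSU are all blue.

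Spread within groups also set the genes apart. The residual SD of the log2 values was high for Fos, Maff (0.97, 97.2nd percentile), Egr1 (0.81, 93.6th), Junb (0.75, 91.7th) and Klf6 (0.73, 90.9th). It was near the middle for Atf3 (0.30, 52.1st) and below it for Ier2 (0.24, 37.5th). Ier2 was called with the smallest difference of the 3 called genes, and Fos was not called with a larger one.

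Markers of other cells varied on the same arrays. The summed intensity of 10 Kupffer cell and macrophage markers was 8277 to 11387 on the NT-Co arrays, 10741 to 15953 on the T-Co arrays and 4869 to 10554 on the T-TSU arrays, and none of them was called. That of 9 neutrophil markers was 680.0 to 1038, 942 to 2329 and 605 to 989, again with none called and with Cxcr2, Ltf and Camp below the filter. For 10 endothelial markers it was 2336 to 3077, 2756 to 4410 and 1984 to 2788, with Pecam1 alone called higher in T-Co than in NT-Co. The Pecam1 mean was 34.6 in NT-Co, below the filter's intensity, and 132 in T-Co. Pecam1 thus passed the filter through the other groups, and its difference from NT-Co has no firm size. T-Co 13 was the highest of the 9 arrays in all 3 sums, as it was for 5 of the 10 early genes, and the part of these cells in the early gene values was not tested. Within these lists the T-Co mean was below the NT-Co mean for Adgre1, Mpo, Elane, Cxcr2, Tek and Tie1. It was above the NT-Co mean for the other markers. The sum of 9 stellate cell and fibroblast markers was 6992 to 7685, 5569 to 6318 and 6181 to 7376, with Col3a1 called lower in T-Co. Lrat and Des had higher means in T-Co than in NT-Co, and the other markers of that list lower ones. The pancreas sum (1958 to 2317, 506 to 783 and 819 to 1705) rested on Cela1 and the intestine sum (2747 to 3496, 952 to 2211 and 3220 to 3865) mainly on Fabp2. Against NT-Co, both genes were called lower in T-Co. The other intestine markers that passed the filter, Lgals4 and Cdx2, were not called. Their means were higher in T-Co (174 and 41.6) than in NT-Co (123 and 39.5). Ctrb1, Cpa1, Krt20 and Vil1 lay below the filter, with a lower mean in T-Co than in NT-Co for Cpa1 and higher ones for the rest. The marker genes named here were chosen after their values were seen.

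The kinases and factors that act upstream of early genes were read from a list of 32, of which 24 were tested. Over all 9225 genes tested the median difference was -0.0169 for T-Co and -0.0146 for T-TSU against NT-Co, beside which the medians of the lists below stand. In T-Co against NT-Co 1 of the 24 rose and none fell, with a median of 0.14. That count is close to the shares of all probe sets, 4.16% called higher and 2.38% lower, and is no result about the list. The gene was Map3k5, the stress-activated kinase ASK1 that feeds the JNK and p38 pathways. It read 113, 152 and 135 on the NT-Co arrays, 256, 385 and 292 on the T-Co arrays and 284, 412 and 320 on the T-TSU arrays. Map3k5 rose by 1.17 ± 0.22 in T-Co (adjusted p = 0.00870) and by 1.29 ± 0.22 in T-TSU (adjusted p = 0.00644) over NT-Co, and none of the 24 was called between T-TSU and T-Co.

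Of the other AP-1, ATF and small Maf family factors, 12 of 17 listed were tested, and Bach1 rose while the other 11 were not called, a count close to the 4.16% of probe sets called higher in T-Co and the 2.49% called higher in T-TSU against NT-Co. Bach1 encodes a repressor that pairs with small Maf proteins. It read 642, 588 and 528 on the NT-Co arrays, 707, 1353 and 1099 on the T-Co arrays and 1368, 996 and 1189 on the T-TSU arrays. It rose over NT-Co by 0.79 ± 0.22 in T-Co (adjusted p = 0.0492, held in 4 of 18 alternatives). It also rose in T-TSU, to a mean of 1184 ± 186 against 586 ± 56.9 in NT-Co (adjusted p = 0.0234, held in 12 of 18). The median of the 12 was 0.29 for T-Co and -0.22 for T-TSU against NT-Co.

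Among 14 tested EGR, KLF and NAB genes outside the 10, Klf13 rose and no other was called, again a count close to those shares. Klf13 is a KLF factor expressed in many tissues. It read 211, 316 and 325 on the NT-Co arrays, 637, 965 and 754 on the T-Co arrays and 778, 980.3 and 758 on the T-TSU arrays, with both tumour groups wholly above NT-Co. It rose by 1.45 ± 0.21 in T-Co (adjusted p = 0.00221) and by 1.55 ± 0.21 in T-TSU (adjusted p = 0.00202), and both calls held in 18 of 18 alternatives. The median of the 14 was 0.37 and 0.23 against NT-Co and -0.13 between T-TSU and T-Co.

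Of the other immediate early genes outside these families, 11 of 35 tested rose in T-Co over NT-Co and none fell, with a median of 0.50, where 4.16% of all probe sets were called higher and 2.38% lower. In T-TSU against NT-Co 6 were called higher and 1 lower, with a median of 0.42, where the shares of all probe sets were 2.49% and 1.36%, and between T-TSU and T-Co none was called, with a median of -0.20. These counts are a description, since the list was chosen with earlier results of these data known. Each listed gene was read by its brightest probe set, while the shares cover all probe sets. The 8 genes with the smallest p are named here. Plk3, a polo-like kinase of the stress response, rose by 2.67 ± 0.28 in T-Co and 2.44 ± 0.28 in T-TSU. Cebpb, a C/EBP factor of the acute phase response, rose by 2.20 ± 0.29 and 1.71 ± 0.29. Pim3, a survival kinase, rose by 1.68 ± 0.20 and 1.53 ± 0.20. Dusp1, a phosphatase that switches off p38 and JNK, rose by 1.76 ± 0.37 and 1.56 ± 0.37, and Nfkbia, the NF-kappaB inhibitor, by 0.90 ± 0.17 and 0.78 ± 0.17. The calls of Plk3, Cebpb and Pim3 held in 18 of 18 alternatives in both comparisons. The Dusp1 call held in 15 of 18 for T-Co (lost without NT-Co 8 or 11 or the intensity trend) and in 11 of 18 for T-TSU (adjusted p up to 0.136), where it was lost without any 1 NT-Co array, without T-TSU 12 or 14, and without the trend or with a robust one. The Nfkbia call held in 17 of 18 for T-Co, all but the fit without the trend, and in 12 of 18 for T-TSU (adjusted p up to 0.117). The latter was lost without NT-Co 8 or 10, without T-TSU 2 or 12, without the trend and as the mean of its probe sets.

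The remaining named genes of that list rose in T-Co and did not pass in T-TSU against NT-Co. They were Cebpd (1.85 ± 0.30 in T-Co, 0.97 ± 0.30 in T-TSU), the NF-kappaB cofactor Nfkbiz (1.42 ± 0.25 and 0.39 ± 0.25) and Zfp36, which binds and destabilises AU-rich mRNAs (1.28 ± 0.24 and 0.75 ± 0.24). Cebpd was not called when all its probe sets were averaged (adjusted p = 0.211). Nfkbiz read 747, 776 and 870 in T-Co and 281, 641 and 319 in T-TSU, which did not overlap, and the value of -1.03 ± 0.25 missed the threshold (adjusted p = 0.189). The gene called lower in T-TSU than in NT-Co was Sgk1, a kinase induced by serum and glucocorticoids, named here after its value was seen (-1.45 ± 0.33, adjusted p = 0.0289).

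**Figure D5:**
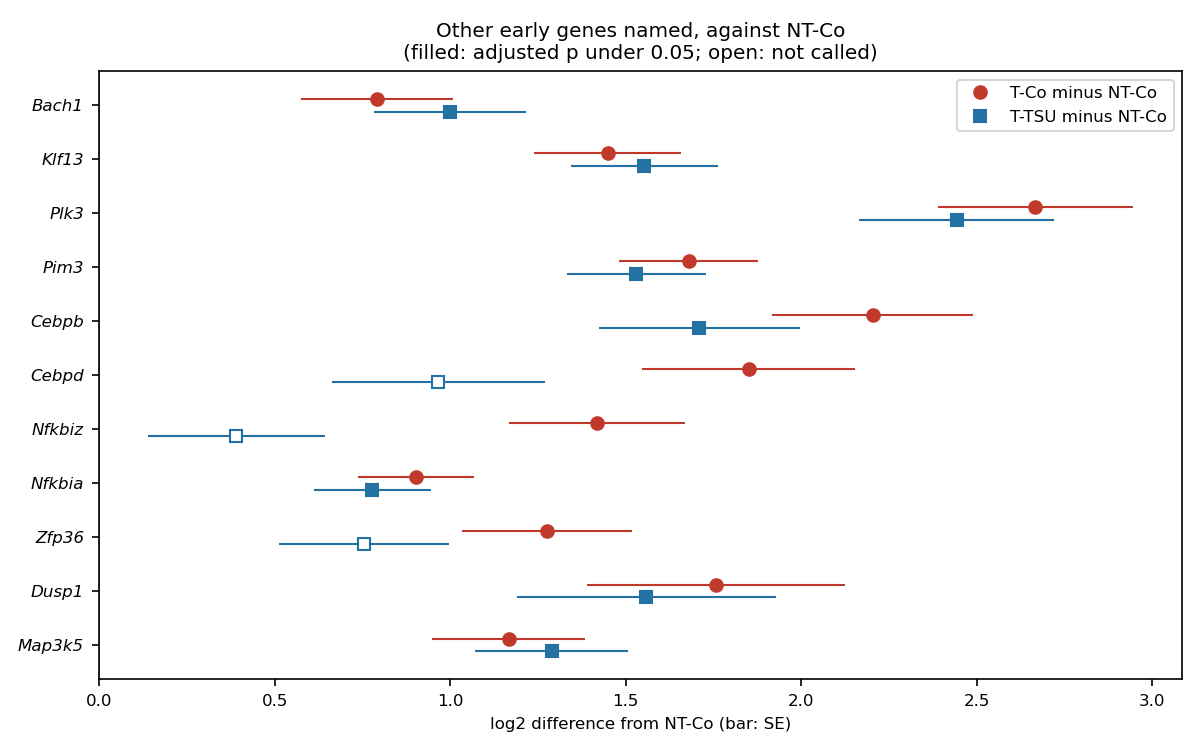
Log2 difference from NT-Co (± SE, limma) of 11 called genes outside the 10, for T-Co (red circles) and T-TSU (blue squares), filled where the adjusted p was under 0.05. Every T-Co point is filled, and the T-TSU points of Cebpd, Nfkbiz and Zfp36 are open.

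The genes whose profile over the 9 arrays was most like the mean centred log2 profile of the 10 were found among 9215 other genes by Pearson correlation. They were Ap1b1 (0.974), Pcmt1 (0.964), Cyp17a1 (0.958), Trip12 (0.951), App (0.935), Cxcl1 (0.930), Phf13 (0.930), Serpina3n (0.928), Asgr2 (0.925) and Scpep1 (0.924). The 9 arrays share their group structure and depth with the profile, so the coefficients are a description. The profile was highest on T-Co 13 and T-Co 10, and without those arrays the coefficients ranged from 0.627 for Phf13 to 0.931 for Ap1b1. Ap1b1 is a clathrin adaptor subunit and no part of the AP-1 transcription factor. Since the genes were picked for following a profile that is highest in T-Co, their differences between the groups are not tested here.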

How the data were processed

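Liver RNA from 9 samples was labelled from 5 µg and hybridised to 3' expression arrays, per the labels' protocols. The deposited intensity values are linear, 1 per probe set and array, and had been scaled by the authors. The labels name no summarisation software. Of 22690 probe sets, 64 controls were left out. The platform annotation gave 1 gene for 20380 of the rest, several for 691 and none for 1555. The intensity table held no gene coordinates, so none are given for genes. Groups came from the sample titles.

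A pseudocount of 7.92 (the 10th percentile of the table) was added before taking log2, which understates the folds of dim genes. Dim probe sets, those with a mean log2 value below its 30th percentile, near an intensity of 36.2, were dropped (6788), which left 15838 probe sets of 9225 genes. A group-means model over the 9 arrays was fitted with limma 3.58.1 in R 4.3.3 (6 residual degrees of freedom, variance moderated along the intensity trend, two-sided tests). The pipeline was tested on simulated data. Values are means ± SD of 3 arrays or log2 differences ± SE, and the number of arrays limits the precision.

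The 10 genes, the gene lists and the tests were chosen with earlier results of these data known. Named genes were the 10 in every comparison, from each list up to 8 genes called in any comparison by smallest p, and the 10 genes most like the mean profile. Alternatives changed the pseudocount, the filter, the normalization, the variance moderation, the groups fitted, the probe set rule and each array in turn.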

Additional observations from a re-analysis of the deposited data

How the results depend on the processing

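No paired analysis was possible because the groups share only replicate number 10, in NT-Co and T-Co. For T-Co against NT-Co, 3 of the 10 genes were called, 5 with a pseudocount of 32, 0 without the intensity trend and 1 to 4 when 1 array was left out. For T-TSU against NT-Co 1 was called, dropping to 0 without the trend and lying between 0 and 1 when an array was left out, and for T-TSU against T-Co 0 were called in every alternative. Probe sets called for T-Co against NT-Co numbered 1036, 473 if the trend was not used, and 445 to 1016 when an array was left out. For T-TSU against NT-Co they numbered 609, 265 and 287 to 793 likewise, and in the F test 902, 312 and 355 to 1007. The 8 of T-TSU against T-Co became 25 with a pseudocount of 32, 14 with a robust trend, 1 after quantile normalization, 0 without a filter, with median centring, without the trend or with only those groups fitted, and 0 to 58 with 1 array left out.

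Of 540 values of the 10 genes under the alternatives, 496 kept their direction and side of the threshold, 26 lost a call, 8 gained one and 10 changed sign. The sign changes in T-TSU against NT-Co were Egr1 (-0.039 after quantile normalization, -0.019 with median centring, and -0.51 to 0.40 with 1 array left out), Fos (-0.53 to 0.94), Jun (-0.77 to 0.14), Jund (-0.13 to 0.28) and Klf6 (-0.19 to 0.35). In T-TSU against T-Co, Fos ranged from -1.32 to 0.11. Among the other named genes in that comparison, with 1 array left out, Bach1 ranged from -0.054 to 0.41 (-0.12 as the mean of its probe sets), Klf13 from -0.034 to 0.26, Plk3 from -0.49 to 0.10, Pim3 from -0.42 to 0.034, Dusp1 from -0.54 to 0.22 and Map3k5 from -0.024 to 0.28. The cause of these changes was not tested. Sgk1 was not called without NT-Co 8 or 11, any 1 T-TSU array or the intensity trend. Dim values, such as Maff in NT-Co and all of Klf4, limit what these arrays can resolve.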
